A study of Mus musculus with 2 samples.

Results

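The genes described are 10 that encode subunits of NF-κB and proteins that switch its response off, namely Nfkb1, Nfkb2, Rel, Relb, Nfkbia, Nfkbiz, Nfkbid, Tnfaip3, Zfp36 and Zfp36l1. They were chosen by name, and all 10 were among the 19169 genes of the deposited table. Single cells were prepared by enzyme digestion from the gastrocnemius of male mice 14 days after cardiotoxin (CTX) was injected to kill fibers and start repair. Both groups received CTX. The library labelled WT came from C57BL/6J mice and the library labelled KO from mice that lack Gsdme, which encodes the pore-forming protein gasdermin E, in all tissues. The methods give 5 mice per genotype, and there was 1 library per genotype. Age at injection and whether mice were pooled were not given in the sources used here. With 1 library per genotype no test between genotypes could be made, and every interval covers counting error only.

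NF-κB is a family of transcription factors made of paired subunits, which inhibitors of the IκB family hold in the cytoplasm until a kinase complex marks the inhibitor for destruction. Freed NF-κB turns on genes of inflammation and survival and also its own brakes. Among these, Nfkbia encodes IκBα, which pulls NF-κB out of the nucleus, and Tnfaip3 encodes an enzyme that edits ubiquitin chains on the signaling complexes upstream. Zfp36 (tristetraprolin) and Zfp36l1 bind AU-rich elements (AREs) and speed the decay of cytokine mRNA. In injured muscle this pathway is known for its activity in macrophages and for holding back differentiation of muscle stem cells (MuSCs). Nfkbia, Nfkbiz and Zfp36 are also known as early response genes, whose RNA climbs within minutes of a stimulus such as warm digestion of tissue.

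By the GENCODE annotation of GRCm38, Nfkb1 lies on chromosome 3 (135584655 to 135691547), Nfkb2 on chromosome 19 (46304320 to 46312385), Rel on chromosome 11 (23736847 to 23770970) and Relb on chromosome 7 (19606217 to 19629438). Nfkbia and Zfp36l1 are both on chromosome 12 (55489410 to 55492647, and 80107754 to 80113013), and Nfkbiz is on chromosome 16 (55811375 to 55838899). Nfkbid and Zfp36 are on chromosome 7 (30421732 to 30428746, and 28376784 to 28380253), and Tnfaip3 is on chromosome 10 (19000910 to 19015657). On the other strand, exons of Nfkb2 share 531 bases with AC114539.1 and 299 with Psd, those of Zfp36 share 125 with Gm44710 and those of Zfp36l1 share 1672 with Gm26669. Whether strand was used in counting was not given in the sources used here, so reads of these pairs may not be told apart.

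The 250 bases before each RefSeq start (GRCm38.p6) of 7 of the genes (12 windows) were searched on both strands, to show which carry a κB site beside their start. The κB consensus was present before Nfkbia, Nfkbid, Nfkb2, Rel and Tnfaip3, in 7 of the 12 windows, against 3.90% of the 32851 windows of all genes. In Rel and Nfkb2 some of these matches overlap each other by all but 1 base. Zfp36 held a CArG box, the element read by serum response factor, which was present in 1.47% of all windows. The element TGANTCA, read by AP-1, was present before Nfkb2, Tnfaip3 and Zfp36l1 and in 6.75% of all windows, and TGACGTCA, read by CREB, before Nfkbid and in 1.55%. The 4 stretches printed here set κB sites against the CArG box, with the matches in capitals. That of Nfkbia is chr12:55492648-55492897, with a κB match 29 to 20 bases before the start. That of Tnfaip3 is chr10:19015411-19015547, with κB matches at 125 to 116 and 12 to 3 bases and a TGANTCA match at 136 to 130. That of Rel is chr11:23770971-23771219, with 2 overlapping κB matches at 92 to 82 bases. That of Zfp36 is chr7:28379267-28379296, with the CArG box 58 to 49 bases before the RefSeq start, and it lies inside an annotated GENCODE exon. All 4 are on the minus strand and are written along the gene, and those of Nfkbia, Tnfaip3 and Rel lie in no annotated exon. A match describes letters and not a bound site.
Nfkbia: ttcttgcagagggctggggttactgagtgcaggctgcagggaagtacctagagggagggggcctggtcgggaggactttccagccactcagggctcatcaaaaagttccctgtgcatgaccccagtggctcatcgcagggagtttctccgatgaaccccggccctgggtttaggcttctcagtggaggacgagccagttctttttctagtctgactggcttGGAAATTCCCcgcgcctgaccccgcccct
Tnfaip3: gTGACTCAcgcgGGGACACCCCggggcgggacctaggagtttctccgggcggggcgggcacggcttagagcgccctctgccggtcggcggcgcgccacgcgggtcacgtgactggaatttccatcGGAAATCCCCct
Rel: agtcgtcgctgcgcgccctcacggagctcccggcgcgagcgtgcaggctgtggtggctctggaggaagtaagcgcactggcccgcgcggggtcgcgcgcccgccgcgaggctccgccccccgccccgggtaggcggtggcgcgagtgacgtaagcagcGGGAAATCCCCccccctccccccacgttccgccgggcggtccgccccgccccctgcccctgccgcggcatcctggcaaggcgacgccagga
Zfp36: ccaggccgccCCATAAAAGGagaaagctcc

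The library labelled WT held 6354 cells and 44758518 unique molecular identifiers (UMIs, 1 per captured RNA molecule), and the library labelled KO 7078 cells and 50930009 UMIs. Their medians were 5740 and 5962.5 UMIs per cell, and 4 barcodes occurred in both. Gsdme was at 5.03 counts per 1e6 UMIs (CPM; by exact limits, 4.39 to 5.73) in the library labelled WT and at 4.65 (4.08 to 5.29) in the library labelled KO, so its RNA did not tell the libraries apart and every direction rests on the labels. Clusters drawn without the NF-κB genes or the other listed pathway genes were named from markers, and 10 types that held 50 cells or more per library were compared. They were fibro-adipogenic progenitor (FAP)-like (1586 cells by the WT label and 2030 by the KO label), tenocyte-like (447 and 402), endothelial-like (1235 and 1218), lymphatic endothelial-like (84 and 79), pericyte and smooth muscle-like (182 and 193), macrophage-like (826 and 997), dendritic-like (113 and 121), T-like (81 and 87), MuSC-like (246 and 246) and Schwann-like (195 and 156). Clusters without a name held 19.5% and 19.4% of cells.

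The DNA-binding subunits were read at the highest levels in immune cells, joined by MuSC-like cells in the library labelled KO for Nfkb1, Nfkb2 and Relb. For Nfkb1 FAP-like cells stood among them too, above T-like cells in both libraries (339 and 480 CPM). Nfkb1 encodes the precursor of the usual partner of RelA. In macrophage-like cells it was at 432 CPM (413 to 452) by the library labelled WT and at 719 (696 to 742) by the library labelled KO. In dendritic-like, FAP-like, T-like and MuSC-like cells, by the library labelled WT, it was at 357, 339, 316 and 292 CPM, and neighbors in this order had overlapping intervals. Schwann-like cells were lowest in both libraries, at 100.4 and 127 CPM. Rel, the c-Rel subunit of lymphoid and myeloid cells, had the steepest order of the subunits. It was at 693 CPM (641 to 749) in dendritic-like, 309 (293 to 326) in macrophage-like, 99.4 (70.3 to 136) in T-like and 27.6 (23.4 to 32.3) in tenocyte-like cells of the library labelled WT. These 4 kept their order in the library labelled KO, at 759, 458, 168 and 40.3 CPM. Below macrophage-like cells, each type overlapped its neighbor in the library labelled WT.

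Nfkb2 and Relb, the pair of the non-canonical branch, were highest in dendritic-like cells of the library labelled WT, at 118 CPM (97.0 to 142) and 116 (95 to 139.9). T-like cells followed within the intervals, at 96.8 and 78.5 CPM, and tenocyte-like cells were lowest, at 33.0 and 20. In the library labelled KO, MuSC-like cells stood at the top of both orders beside dendritic-like cells. Nfkb2 was at 134 (116 to 155) CPM in MuSC-like and 129 (108 to 152) in dendritic-like cells, and Relb at 118 (101 to 137) and 120.0 (100.1 to 143), so that neither pair differed beyond its intervals. Of the 9 steps in the order in the library labelled WT, 8 for Nfkb2 and 9 for Relb lay within overlapping intervals.

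The IκB genes followed different orders. Nfkbia was highest in lymphatic endothelial-like cells, at 1692 CPM (1594 to 1794) with the WT label and 1065 (987 to 1148) with the KO label. Macrophage-like cells followed at 1234 CPM (1201 to 1267) and 975 (949 to 1002), then endothelial-like cells at 846 and 761, and T-like cells were lowest at 267 and 257. In the library labelled WT the top 4 types stood apart beyond their intervals, whereas in the library labelled KO the first and second overlapped. Nfkbiz, whose product IκBζ works in the nucleus and helps induce Il6, was highest in macrophage-like cells, at 468 CPM (448 to 488) and 428 (411 to 446). It was lowest in tenocyte-like cells of the library labelled WT, at 58.2 CPM, and in T-like cells of the library labelled KO, at 97.2. Nfkbid, which encodes the nuclear IκBNS of lymphocytes and macrophages, was read mainly in immune cells. It was at 58.9 CPM (52.0 to 66.5) and 72.8 (65.8 to 80.4) in macrophage-like and at 53.6 (39.8 to 70.7) and 86 (69.3 to 106) in dendritic-like cells. In FAP-like cells it gave 10 and 7 UMIs, in MuSC-like cells 1 and 0 UMIs, and in lymphatic endothelial-like cells 0 in both libraries, which allows up to 5.60 and 5.75 CPM by the intervals.

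Tnfaip3 was set apart by T-like cells, at 536 CPM (465 to 615) with the WT label and 904 (814 to 1000.1) with the KO label. Macrophage-like cells followed at 220.1 and 266 CPM and dendritic-like cells at 159 and 156, and each of these steps lay beyond the intervals in both libraries. Endothelial-like cells were at 40.6 and 66.0 CPM. In FAP-like cells Tnfaip3 was only at 7.71 CPM (6.26 to 9.41) and 18.9 (16.9 to 21.0). Zfp36 was highest in macrophage-like cells of the library labelled WT, at 1472 CPM (1436 to 1508), with endothelial-like cells second at 1309 (1284 to 1334). The library labelled KO had these in the other order, at 1957 (1919.7 to 1995) and 2191 (2158 to 2224). T-like cells were lowest for Zfp36 in both, at 288 and 228 CPM. Zfp36l1 was highest in pericyte and smooth muscle-like and FAP-like cells, at 1063 and 1020.1 CPM in the library labelled WT and 1351 and 1447 in the library labelled KO, where the intervals overlapped within each library. The plot of levels by cell type shows these orders.

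**Figure D1:**
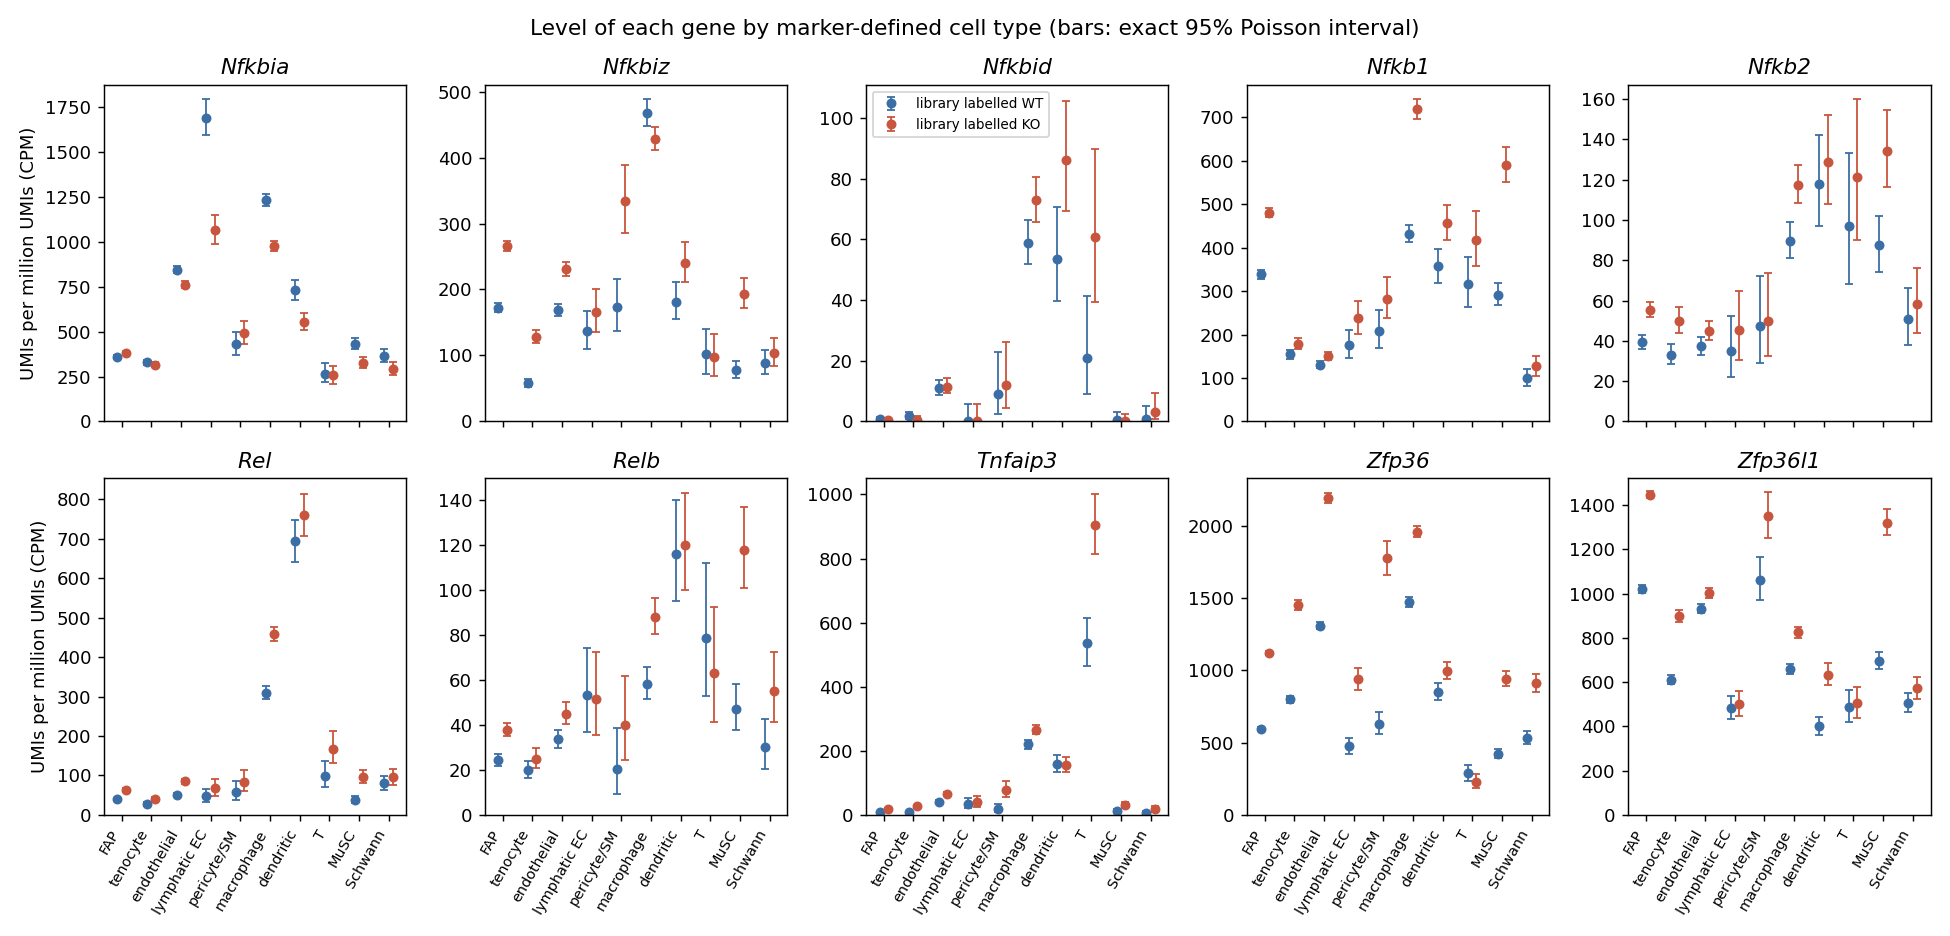
Level of each of the 10 genes (CPM; linear axes from 0) in 10 marker-defined cell types, with 1 point per library (blue, labelled WT; red, labelled KO) and exact 95% Poisson intervals as bars (EC, endothelial; SM, smooth muscle). Zfp36 was at 1309 and 2191 CPM in endothelial-like cells, whereas Nfkbia was lower in the library labelled KO in lymphatic endothelial-like cells, at 1692 and 1065 CPM.

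To compare the libraries, each gene's level in the library labelled KO was divided by that in the library labelled WT within a type, and the ratio was counted as higher or lower if it was at least 1.5-fold and its exact 95% interval left out 1. Of 100 pairs of a gene and a type, 94 had the 20 UMIs needed for a ratio. Of these, 34 were higher in the library labelled KO, 1 was lower, and 80 had a log2 ratio above 0. The 1 that was lower was Nfkbia in lymphatic endothelial-like cells. Of all genes with a ratio, the share that was higher ran from 3.42% in FAP-like to 10.6% in MuSC-like cells. The share that was lower ran from 3.37% in lymphatic endothelial-like to 8.15% in T-like cells. Median log2 ratios of all genes lay between -0.07 (T-like) and 0.08 (lymphatic endothelial-like).

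MuSC-like cells held the most. Where a pair of values is given from here on, that of the library labelled WT comes first. In MuSC-like cells 8 of the 9 genes with a ratio were higher (Nfkb1, Nfkb2, Rel, Relb, Nfkbiz, Tnfaip3, Zfp36 and Zfp36l1) and 0 lower, where 10.6% and 7.35% of all genes with a ratio were higher and lower. The median log2 ratio of the 9 was 1.15, against 0.03 for all genes in that type. The markers that named these cells were also at higher levels in the library labelled KO, 8 of 8, among them Pax7 (158 and 289 CPM), Myod1 (320.4 and 543) and Vcam1 (297 and 524, itself on the list of NF-κB targets). Their part in the ratios was not tested. Rel was at 38.5 CPM (30.0 to 48.6) and 96.7 (81.4 to 114), for a log2 ratio of 1.33 (0.91 to 1.76), and Relb at 47.3 and 118 CPM, for a log2 ratio of 1.32 (0.94 to 1.71). Nfkbiz was at 77.5 CPM (65.2 to 91.4) and 193 (171 to 217). The study used Nfkbiz as a marker of a MuSC group found in these libraries, so its direction here is not independent of that choice. Nfkb1 was at 292 and 590.2 CPM, for a log2 ratio of 1.02 (0.86 to 1.17), and Zfp36 at 424 CPM (395 to 455) and 943 (893 to 994). Zfp36l1 was at 697 and 1321 CPM, Nfkb2 at 87.4 and 134, and Tnfaip3 at 11.5 and 29.5, on 21 and 43 UMIs. Against these 8 genes, Nfkbia was at 433 CPM (403 to 464) and 326 (298 to 357), for a log2 ratio of -0.41 (-0.57 to -0.24).

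Markers of other cells were read beside these ratios. In MuSC-like cells the 8 macrophage markers summed to 52.2 and 61.0 CPM, with 0 of 4 that had a ratio higher and Fcgr1 at 0 in both libraries, against 14057 and 13906 CPM in macrophage-like cells. The 8 dendritic markers summed to 33.0 and 73.4 CPM, with 1 of 1 that had a ratio higher and Flt3, Clec9a, Xcr1 and Cd209a at 0 in both libraries. The 8 monocyte markers summed to 375 and 208 CPM, with 1 of 3 higher and 1 lower, and all 7 T cell markers were at 0 in the library labelled KO. The part of such RNA in the ratios of MuSC-like cells was not tested.

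In FAP-like cells, which support fiber repair and can turn into fat or scar tissue, 5 of 9 genes were higher (Nfkbiz, Rel, Relb, Tnfaip3 and Zfp36) and 0 lower, beside 3.42% and 6.39% of all genes higher and lower. Their median log2 ratio was 0.62, against -0.06 for all genes. Zfp36 was at 593 CPM (580.0 to 607) and 1119.9 (1104 to 1136), for a log2 ratio of 0.92 (0.88 to 0.95). Tnfaip3 was at 7.71 and 18.9 CPM, for a log2 ratio of 1.29 (0.96 to 1.63). Rel, Relb and Nfkbiz had log2 ratios of 0.67, 0.64 and 0.62, close to the limit of 0.58, and 3 genes in place of 5 were higher at either of the other resolutions of clustering. Of all genes, 421 of 12590 were higher at resolution 0.4 and 396 of 12514 at resolution 1.2. Just under the limit were Nfkb1, Nfkb2 and Zfp36l1, each with a log2 ratio of 0.50. Nfkbia was at 358 CPM (348 to 369) and 384 (375 to 393), for a log2 ratio of only 0.10 (0.05 to 0.15). Tenocyte-like cells held 4 of 9 higher (Nfkbiz, Nfkb2, Tnfaip3 and Zfp36) and 0 lower, beside 6.57% and 3.57% of all genes, with a median log2 ratio of 0.56 against 0.06. Nfkbiz was at 58.2 and 128 CPM in them and Tnfaip3 at 8.71 and 26.4, whereas Nfkbia was at 329 and 316.

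In endothelial-like cells 3 of 10 genes were higher (Rel, Tnfaip3 and Zfp36) and 0 lower, beside 4.04% and 3.62% of all genes. Rel was at 51.5 CPM (46.6 to 56.7) and 84.8 (78.4 to 91.6), and Tnfaip3 had a log2 ratio of 0.70 (0.50 to 0.90). Zfp36 had a log2 ratio of 0.74 (0.71 to 0.78), whereas Nfkbia had one of -0.15 (-0.20 to -0.10). In lymphatic endothelial-like cells Zfp36 was higher and Nfkbia lower, 1 of 9 each way, beside 6.52% and 3.37% of all genes. There Zfp36 was at 475 CPM (424 to 531) and 937 (864 to 1016), and Nfkbia had a log2 ratio of -0.67 (-0.81 to -0.53). The Nfkbia ratio rests on summed UMIs of 84 and 79 cells, and Nfkbia was found in 72.6% and 74.7% of them. With cells thinned to 1000 UMIs each (16 and 7 cells left out), the shares were 52.9% and 43.1%, with overlapping intervals. Macrophage markers summed to 166 and 99.8 CPM, monocyte markers to 140 and 88.9 and dendritic markers to 91.1 and 32.8. In each set 1 of 2 with a ratio was lower. FAP markers were at 667 and 969 CPM and pericyte and smooth muscle markers at 57.7 and 228. The part of such RNA in the Nfkbia ratio was not tested.

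Pericyte and smooth muscle-like cells held 3 of 9 higher (Nfkbiz, Tnfaip3 and Zfp36) and 0 lower, beside 4.73% and 6.13% of all genes. Zfp36 had its largest ratio over the 10 types in them, from 631 to 1773 CPM, for a log2 ratio of 1.49 (1.29 to 1.69). Tnfaip3 was at 18.0 CPM (7.76 to 35.4) and 78.1 (55.5 to 107), on 8 and 39 UMIs. Several sets of markers of other cells were also at higher levels in the library labelled KO. Red blood markers were at 128 and 20749 CPM and FAP markers at 3309 and 5910 CPM. Cells with over 1% of their UMIs in red blood markers numbered 1 and 3, and without them red blood markers were at 94.5 and 131 CPM, the same number of genes, 3, was higher, and the log2 ratios of Zfp36 and Tnfaip3 were 1.53 and 2.09. Red blood markers differed likewise in endothelial-like cells (1486 and 5299 CPM, and 85.8 and 91.4 without 11 and 16 such cells) and in FAP-like cells (67.7 and 588 CPM, and 33.0 and 33.1 without the cells rich in B or red blood markers), where 3 and 5 genes were again higher. This choice of cells was made after seeing the data. The 8 dendritic markers summed to 47.2 and 134 CPM, the 8 monocyte markers to 78.6 and 232 with 2 of 2 that had a ratio higher, the 8 macrophage markers to 101 and 150.1 and the 7 T cell markers to 4.49 and 26.0. Flt3, Clec9a, Xcr1, Cd209a and Itgax were at 0 in both libraries. The part of immune and FAP RNA in the Tnfaip3 ratio was not tested.

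Among immune cells, macrophage-like cells held 2 of 10 genes higher (Nfkb1 and Relb) and 0 lower, beside 3.96% and 6.65% of all genes. Nfkb1 had a log2 ratio of 0.73 (0.65 to 0.81) and Relb, at 58.2 and 88.0 CPM, one of 0.60 (0.37 to 0.82). Rel was just under the limit at 0.57 (0.47 to 0.66). Nfkbia, by contrast, had a log2 ratio of -0.34 (-0.39 to -0.28), and Nfkbiz one of -0.13 (-0.21 to -0.04). Both macrophage-like clusters were read on their own. In the cluster led by Lyz2, C1qb and H2-Ab1 (526 and 641 cells), Nfkbia was at 1202 and 1057 CPM and Nfkbiz at 374 and 393. In the cluster led by Pf4, C1qa and C1qc, with Folr2 and Mrc1 among its leading genes (300 and 356 cells), Nfkbia was at 1326 and 719 CPM, for a log2 ratio of -0.88 (-1.0 to -0.76), and Nfkbiz at 746 and 539, one of -0.47 (-0.61 to -0.32). Nfkb1 in that cluster was at 237 and 509 CPM, for a log2 ratio of 1.11 (0.90 to 1.32). The subunit and its inhibitor had ratios of opposite sign in the same cells, with intervals that do not meet. Whether the clusters differ in their ratios was not tested.

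Dendritic-like cells held 2 of 10 genes higher (Nfkbid and Zfp36l1) and 0 lower, beside 7.00% and 5.28% of all genes, and their Nfkbia was at 731 and 555 CPM. In them T cell markers were at 1.07 and 35.9 CPM, endothelial markers at 105 and 537 and NK markers at 92.3 and 162. FAP markers were at 1721 and 976 CPM and monocyte markers at 3488 and 3186. The part of these other cells in the ratios of dendritic-like cells was not tested. T-like cells held 3 of 10 higher (Nfkbid, Rel and Tnfaip3) and 0 lower, beside 5.52% and 8.15%. Tnfaip3 in them had a log2 ratio of 0.75 (0.50 to 1.01). The cluster was led by Igkc and Igha, genes of antibody-making cells, beside Cd3g and Trbc2, and its B cell markers were at 26.2 and 24574 CPM. In the library labelled KO 1 cell had over 1% of its UMIs in B cell markers, and without it these were at 64.8 CPM, 3 genes were again higher, and Nfkbid, Rel and Tnfaip3 had log2 ratios of 1.63, 0.85 and 0.83. Monocyte markers were at 5134 and 2570 CPM in T-like cells and tenocyte markers at 706 and 26.7. Nfkbid rested on 8 and 25 UMIs, and beside it the 8 dendritic markers summed to 91.5 and 349.7 CPM in T-like cells, with 1 of 1 that had a ratio higher and Flt3 and Clec9a at 0 in both libraries. The part of these other cells in the ratios of T-like cells was not tested. Zfp36 had a log2 ratio of -0.33 (-0.75 to 0.08) in T-like cells, which was 0.19 by the mean over cells. Schwann-like cells held 3 of 9 higher (Relb, Tnfaip3 and Zfp36) and 0 lower, beside 5.21% and 4.06%, of which Tnfaip3 rested on 6 and 16 UMIs. Macrophage markers summed to 42.2 and 113 CPM in Schwann-like cells, with 4 of 4 that had a ratio higher, and dendritic markers to 16.0 and 84.4, with 1 of 1 higher and Flt3, Clec9a, Xcr1, Cd209a and Itgax at 0 in both libraries. MuSC markers were at 26.3 and 96.3 CPM and FAP markers at 9527 and 5715, and the part of these cells was not tested.

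Of all genes past the limits, the share that were higher moved by over 10 percentage points with another scaling in 4 types. Centring on the median of all genes moved it from 64.8% to 54.1% in tenocyte-like, from 65.9% to 50.2% in lymphatic endothelial-like and from 40.4% to 51.9% in T-like cells, and the mean over cells moved it from 56.2% to 45.4% in Schwann-like cells. Smaller moves crossed 50% in endothelial-like cells (52.8%, and 46.9% when centred) and in pericyte and smooth muscle-like cells (43.6%, and 51.0% by the mean over cells). Signs of single genes changed by either scaling for log2 ratios between -0.33 and 0.21. These were Zfp36, Nfkbiz and Nfkbia in T-like cells, Zfp36l1 in lymphatic endothelial-like cells, Nfkb2 in dendritic-like, pericyte and smooth muscle-like and Schwann-like cells, and Relb and Tnfaip3 in dendritic-like cells.

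**Figure D2:**
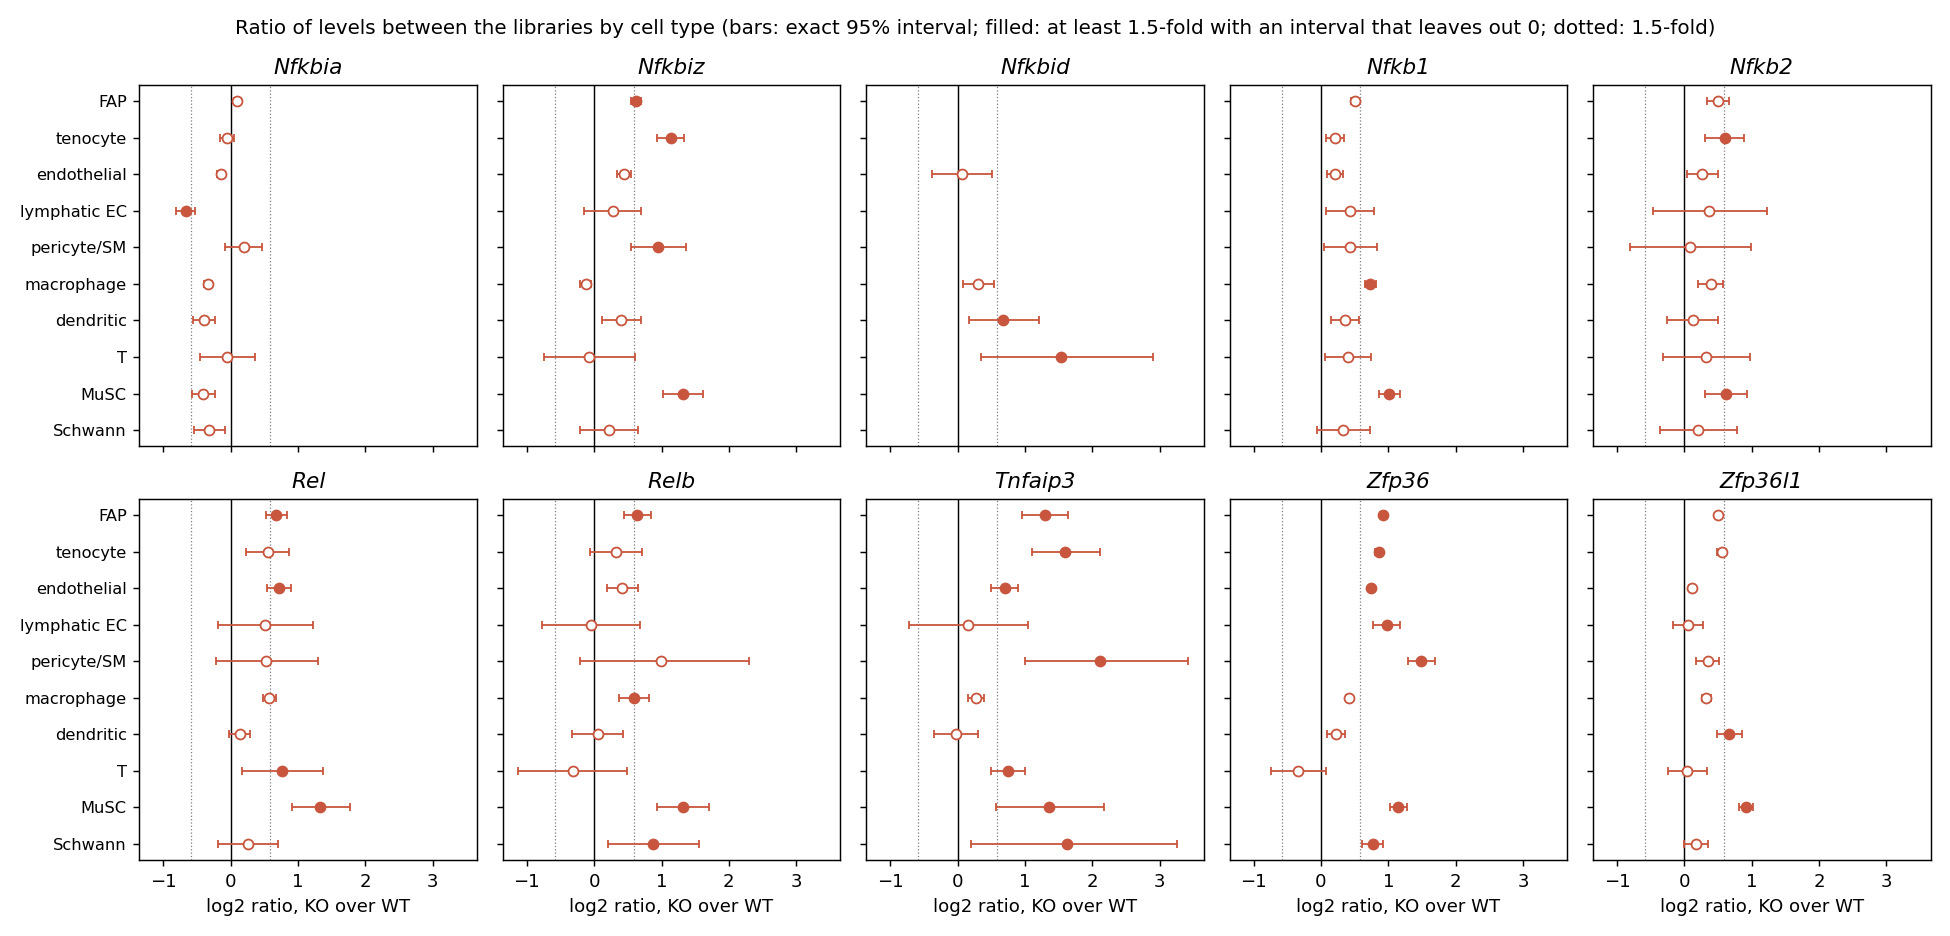
Log2 ratio of the level in the library labelled KO over that in the library labelled WT for each gene in 10 cell types, with exact 95% intervals as bars; filled points are at least 1.5-fold (dotted lines) with an interval that leaves out 0, and pairs under 20 UMIs are not drawn. Filled points number 34 to the right of 0 and 1 to the left, that of Nfkbia in lymphatic endothelial-like cells. By type, 3.42% to 10.6% of all genes with a ratio were higher and 3.37% to 8.15% lower.

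Seen by gene, Tnfaip3 and Zfp36 were higher in 7 of 10 types each, Nfkbiz, Rel and Relb in 4, Nfkb1, Nfkb2 and Zfp36l1 in 2, Nfkbid in 2 of 4 and Nfkbia in 0. Nfkb1, Nfkb2, Rel and Zfp36l1 had log2 ratios above 0 in all 10 types, with medians of 0.41, 0.35, 0.56 and 0.33, apart from the sign changes by scaling given above for Nfkb2 and Zfp36l1. Zfp36l1 in T-like cells also changed sign, from 0.05 to -0.07, when the libraries were clustered without Harmony integration. Nfkbia had one above 0 only in FAP-like and pericyte and smooth muscle-like cells (and in T-like cells when centred or without the cell rich in B cell markers), and its interval lay below 0 in 6 types. Its median over types was -0.23. In all cells together Nfkbia was at 658 CPM (650.5 to 666) and 562 (555 to 568), while Nfkb1 was at 255 and 389.6 and Zfp36 at 895 and 1480.3.

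The same was read within single clusters. Over the 19 clusters of 50 cells or more per library, the log2 ratio of Zfp36 was above 0 in 18, with a median of 0.82, and that of Nfkb1 in 18, with a median of 0.43. That of Nfkbia was above 0 in 5, with an interval above 0 in 2 and below 0 in 9, and a median of -0.07 (range, -0.88 to 0.22). Rel was above 0 in 18 of 19, Tnfaip3 in 15 of the 16 clusters with enough UMIs, and Relb and Nfkbiz in 16 of 19 each. The clusters share their libraries and are not replicates.

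**Figure D3:**
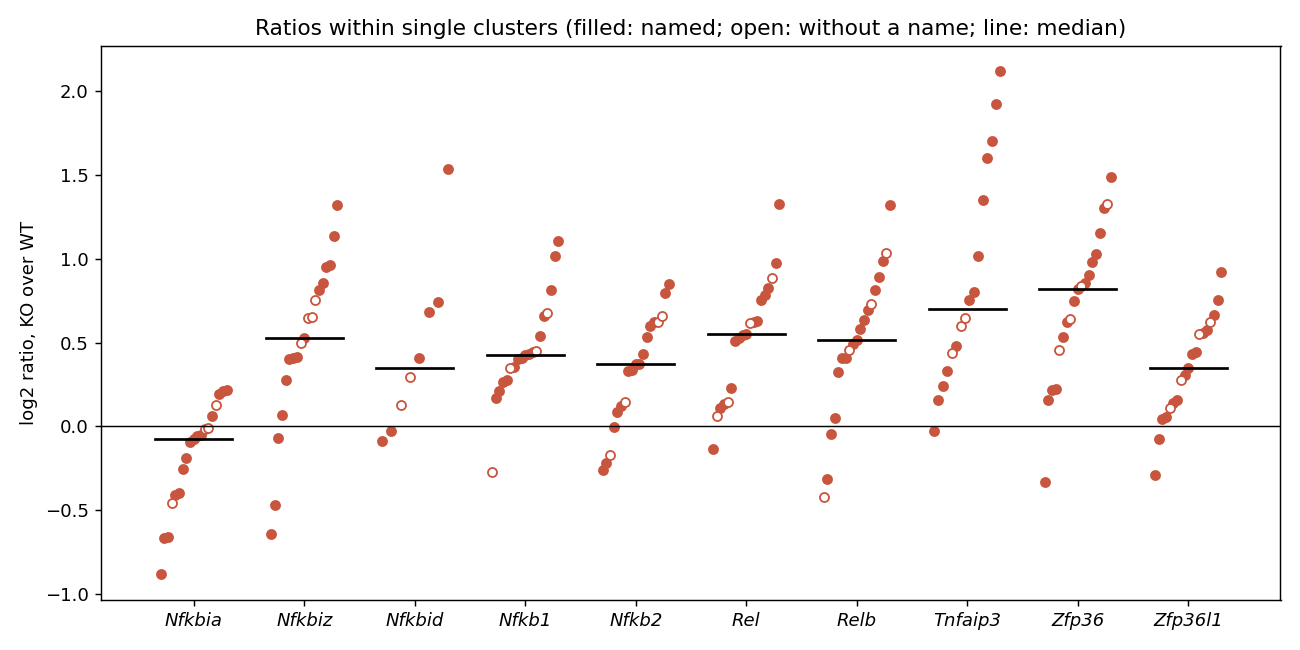
Log2 ratio of the library labelled KO over the library labelled WT for each gene within single clusters of at least 50 cells in each library and 20 UMIs for the gene (1 point per cluster; filled, named; open, without a name; line, median). Most points of Zfp36, Nfkb1 and Rel lie above 0 (18 of 19 each), and those of Nfkbia lie on both sides (5 of 19 above).

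Early response and heat-shock genes were read beside these ratios. The summed level of 28 such genes (among them Fos, Jun, Egr1, Hspa1a and Hspa1b, with none of the NF-κB genes) was 29748 and 41383 CPM in FAP-like cells, for a log2 ratio of 0.48, and 29582 and 44218 CPM in MuSC-like cells, one of 0.58. It had log2 ratios of 0.63 in pericyte and smooth muscle-like, 0.54 in dendritic-like, 0.49 in Schwann-like, 0.49 in T-like, 0.30 in tenocyte-like and 0.29 in endothelial-like cells, and of 0.08 in macrophage-like and -0.08 in lymphatic endothelial-like cells. Beside this sum, the log2 ratio of Zfp36 ran from -0.33 in T-like to 1.49 in pericyte and smooth muscle-like cells. That of Nfkbia ran from -0.67 in lymphatic endothelial-like to 0.19 in pericyte and smooth muscle-like cells. Single early genes past the limits numbered 13 higher and 0 lower of 28 in FAP-like, 8 and 1 in endothelial-like, 7 and 3 in macrophage-like and 15 and 1 in MuSC-like cells. Of all genes, 3.42% and 6.39%, 4.04% and 3.62%, 3.96% and 6.65%, and 10.6% and 7.35% were higher and lower in these types. The sum in macrophage-like cells thus joins genes of both directions. The largest ratios in FAP-like cells were those of Hspa1b (495 and 1857 CPM), Hspa1a (398 and 1387), Dnajb1 (391 and 1284) and Hsph1 (265 and 666). In macrophage-like cells they were those of Klf4 (1428 and 640.1 CPM), Hsph1 (239 and 505), Hspe1 (377 and 765) and Dnajb1 (311 and 601). In endothelial-like cells Hsph1, Hspa1b, Dnaja1 and Hspe1 led, with log2 ratios of 1.38, 0.95, 0.81 and 0.79. The part of the early response in the ratios of the NF-κB genes was not tested.

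**Figure D4:**
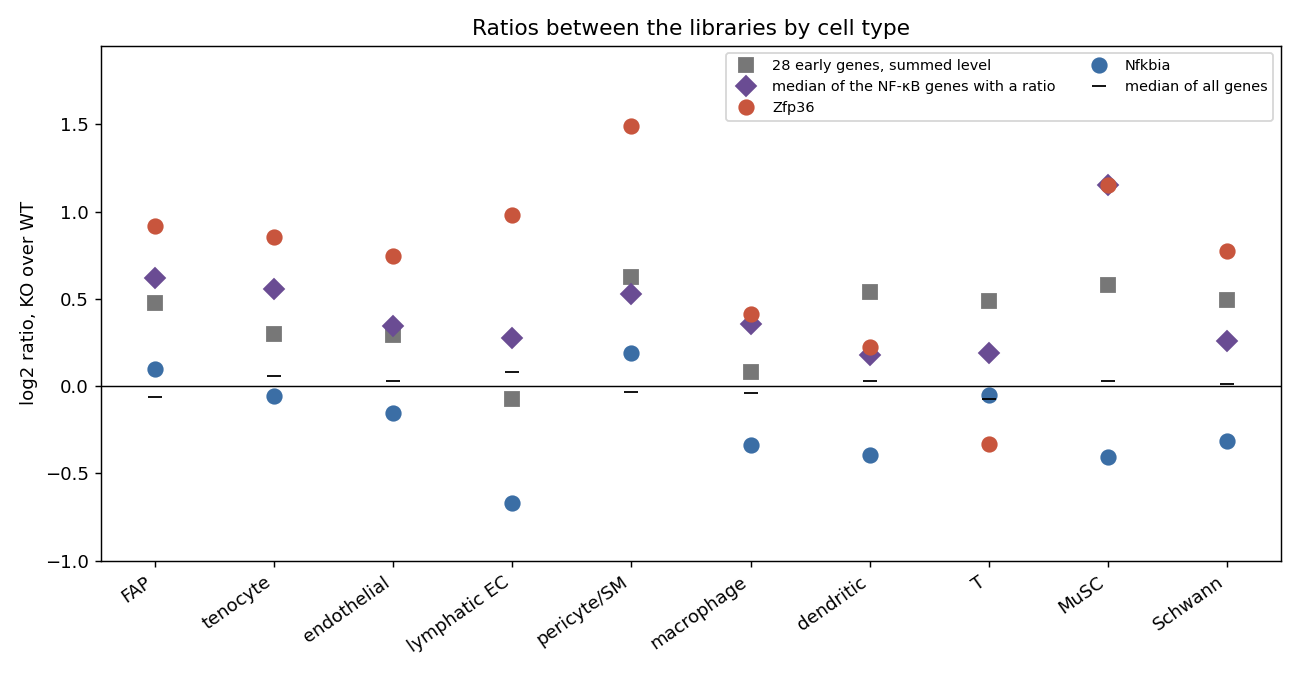
Log2 ratio of the library labelled KO over the library labelled WT in 10 cell types for the summed level of 28 early genes, the median of the NF-κB genes with a ratio, Zfp36, Nfkbia and the median of all genes. Nfkbia lies below Zfp36 in 9 of the types, and the early genes run from -0.08 in lymphatic endothelial-like to 0.63 in pericyte and smooth muscle-like cells.

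Other genes of the pathway were read in order of their place in it. Of the remaining subunits and inhibitors (Rela, Nfkbib, Nfkbie and Bcl3), 3 of 4 were higher in MuSC-like cells, with a median log2 ratio of 1.11, and 2 of 4 in tenocyte-like cells. Of all genes, 10.6% and 6.57% were higher in these types. Rela, the main activating subunit, was at 106 and 193 CPM in macrophage-like cells, for a log2 ratio of 0.86 (0.70 to 1.02), and Nfkbie, a further cytoplasmic inhibitor, at 4.94 and 8.88 in endothelial-like cells. In T-like cells Rela was lower, at 144 and 72.9 CPM on 55 and 30 UMIs, for a log2 ratio of -0.98 (-1.67 to -0.31). It was the 1 gene lower of 3 with a ratio there, beside 8.15% of all genes. In FAP-like cells 0 of 4 passed the limits, where 3.42% of all genes were higher and 6.39% lower. Among 13 kinases, Map3k14, the kinase of the non-canonical branch, was higher in FAP-like (6.68 and 10.5 CPM), macrophage-like (20.9 and 31.6) and endothelial-like cells (8.27 and 14). In FAP-like cells Ikbke was also higher, at 5.25 and 8.15 CPM, and Ripk2 lower, at 10.4 and 6.80. Of the 9 kinases with a ratio in MuSC-like cells, 0 passed the limits, where 10.6% of all genes were higher and 7.35% lower. Among 11 adaptors, Myd88, which serves Toll-like and IL-1 receptors, was higher in macrophage-like cells at 62.1 and 100.2 CPM, and Ticam1 was lower in FAP-like cells at 5.73 and 3.20.

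Of 12 receptors, Cd40 and Il1rl1 were higher in macrophage-like cells, at 56.2 and 94.5 CPM and at 13.7 and 21.9. Tnfrsf12a, the receptor for TWEAK, was lower in macrophage-like (92.2 and 58.0 CPM) and endothelial-like cells (137 and 80.3). In FAP-like cells 0 of the 11 with a ratio passed the limits, where 3.42% of all genes were higher and 6.39% lower. Among 11 ligands, Il1b was at 232 and 1019 CPM in macrophage-like cells, for a log2 ratio of 2.13 (2.04 to 2.23), and Il1a at 21.8 and 47.7. Il1b was also higher in dendritic-like cells, at 1496 and 2594 CPM. It was higher too in tenocyte-like (6 and 62 UMIs), T-like (1 and 79), MuSC-like (3 and 18) and Schwann-like cells (0 and 28). In FAP-like (35 and 36 UMIs) and endothelial-like cells (10 and 16) it did not pass the limits. The part of RNA from other cells in these values was not tested. Tnf in FAP-like cells was lower on 24 and 13 UMIs and Tnfsf11 higher on 7 and 35 UMIs. In endothelial-like cells Ltb was lower (4.81 and 1.31 CPM) and Il33, an alarm cytokine, higher (3.21 and 7.58). Of 14 further inhibitors and RNA decay factors, Zc3h12a (Regnase-1), which cuts cytokine mRNA, was higher in FAP-like (20.1 and 46.1 CPM) and endothelial-like cells (35.4 and 56.7). Tnip3, a partner of the Tnfaip3 product, was higher in macrophage-like cells at 66.1 and 155 CPM, and N4bp1 lower at 63.4 and 39.7.

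Among 21 known targets of NF-κB, 7 were higher and 1 lower in FAP-like cells (median log2 ratio, 0.31). They numbered 4 and 1 in endothelial-like cells (0.18) and 2 and 2 of 20 with a ratio in macrophage-like cells (0.17). In tenocyte-like cells they numbered 10 and 1 of 20 (0.64), and in MuSC-like cells 8 and 1 of 18 (0.44). In Schwann-like cells they numbered 8 and 1 of 19 (0.58), and in pericyte and smooth muscle-like cells 5 and 0 of 17 (0.48). Lymphatic endothelial-like cells held 2 and 2 of 15 (0.06), dendritic-like cells 4 and 1 of 17 (-0.01) and T-like cells 4 and 2 of 17 (0.32). Of all genes, 3.42% were higher and 6.39% lower in FAP-like, 4.04% and 3.62% in endothelial-like and 3.96% and 6.65% in macrophage-like cells. The shares were 6.57% and 3.57% in tenocyte-like, 10.6% and 7.35% in MuSC-like and 5.21% and 4.06% in Schwann-like cells. Pericyte and smooth muscle-like cells had 4.73% and 6.13%, and lymphatic endothelial-like cells 6.52% and 3.37%. Dendritic-like cells had 7.00% and 5.28%, and T-like cells 5.52% and 8.15%. The 2 and 2 of 20 targets in macrophage-like cells lie near the shares of all genes there. Il6 was at 188 and 611 CPM in FAP-like, 35.4 and 131 in endothelial-like and 12.8 and 22.8 in macrophage-like cells. Ccl7, a monocyte attractant, was at 351 and 734 CPM in FAP-like and 13.3 and 59.3 in endothelial-like cells. In FAP-like cells Sele was higher on 8 and 44 UMIs and Ccl5 lower at 8.59 and 2.92 CPM. In macrophage-like cells Cxcl1 (641 and 243 CPM) and Ccl5 (77.3 and 33.7) were lower, while Birc3, an inhibitor of cell death, was higher at 133 and 211. In endothelial-like cells Birc3 was at 35.7 and 72.5 CPM and Cxcl2 at 119.6 and 183.

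ZFP36 proteins shorten the life of mRNA with AREs, and 14 such targets were read beside Zfp36. In FAP-like cells, where Zfp36 was higher, 2 of 12 with a ratio were higher and 2 lower, with a median log2 ratio of 0.09. Of all genes there, 3.42% were higher and 6.39% lower. Il6 and Ccl2 (347 and 681 CPM) were the higher and Tnf and Vegfa (203 and 113) the lower pair. In endothelial-like cells 3 of 12 were higher (Il6, Myc and Cxcl2) and 1 lower (Vegfa, at 65.8 and 34.9 CPM), beside 4.04% and 3.62% of all genes. Myc was at 53.3 and 82.6 CPM there. Zfp36 was also higher in further types. Targets higher and lower numbered 3 and 0 of 10 in pericyte and smooth muscle-like cells (median log2 ratio, 0.62) and 4 and 0 of 11 in MuSC-like cells (0.50). Of all genes, 4.73% and 6.13% were higher and lower in the first and 10.6% and 7.35% in the second. They numbered 4 and 1 of 11 in tenocyte-like (0.17), 4 and 2 of 11 in Schwann-like (0.49) and 1 and 3 of 9 in lymphatic endothelial-like cells (0.04). Of all genes, 6.57% and 3.57%, 5.21% and 4.06%, and 6.52% and 3.37% were higher and lower in these. In macrophage-like cells, where Zfp36 did not pass the limits, 4 targets were higher and 1 lower of 13, beside 3.96% and 6.65% of all genes. Vegfa was among the higher there at 21.6 and 42.5 CPM. Several of these genes are also targets of NF-κB, and the lists share members.

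The genes most like each of the 10 in level were taken from 12858 genes, by the Pearson correlation of log2(CPM + 10) over 20 points, which were the 10 types in both libraries and share library and depth. Nfkbia was most like Smagp (r = 0.92), Lyl1 and Sh3tc1, and Nfkbiz most like Tnfaip2 (r = 0.87), Map3k8 and Zc3h12a. Nfkbid was most like Cysltr1 (r = 0.95), Hcls1 and Lcp1, and Nfkb1 most like Il17ra (r = 0.84), Frrs1 and Pim1. Nfkb2 and Relb shared Riok3 among their most similar genes, beside Areg (r = 0.89) and Tank for Nfkb2 and Pmaip1 (r = 0.91) and Nfkbie for Relb. Rel was most like Dennd4b (r = 0.96), Etv3 and H2-DMb1, and Tnfaip3 most like Fgd3 (r = 0.93), Dennd1c and Madd. Zfp36 had the weakest likeness of the 10, to Sh3bgrl (r = 0.77), 3110082I17Rik and Cflar, and Zfp36l1 was most like Cxcl1 (r = 0.87), Dnajb1 and Eif4g3.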

How the data were processed

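Gene expression was read in single cells with a 10x 5′ kit. The authors deposited 1 table of both libraries, in natural log units: ln(1 + x), where x is a gene's count scaled to a cell total of 10000. The submitters' processing notes name mm10 and Cell Ranger 2.1.1, whereas the methods name a later Cell Ranger version, with Seurat and DoubletFinder. Which version made the table is not settled here. Undoing the log and dividing by the value of 1 UMI in each cell gave whole UMIs for 99.99988% of values above 0 (within 0.1 UMI). Barcode suffixes gave the library.

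Cells were clustered (2000 variable genes without the listed genes, 30 components by scikit-learn 1.9.0, Harmony rewritten in numpy, Louvain clusters by igraph 0.11.9, resolution 0.8) and named from markers. Some naming limits were set after the clusters were seen: a second lineage at 0.75 of the first, and at least 1 own marker among the 10 leading genes. Scrublet (in Scanpy 1.11.5) marked 100 and 118 cells, which were kept. UMIs were summed per library and type into CPM with exact Poisson 95% intervals, and ratios were given exact binomial intervals for genes with 20 UMIs or more. The counting steps were checked on simulated data. Alternatives were another scaling, centring, limits, filters, doublets, integration and resolution, and, chosen after seeing the data, cells rich in B or red blood markers left out.

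The members and lists were chosen with earlier results of these data known. All 10 genes were named in every type, with the 4 largest ratios past the limits of each other list in FAP-like, macrophage-like and endothelial-like cells, and the 3 genes most alike. Promoter sequences are from RefSeq (GRCm38.p6).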

Additional observations from a re-analysis of the deposited data

How the results depend on the processing

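No paired analysis was possible because each genotype had 1 library and no result came from a test. Over the alternatives tried, 236 counts of genes stayed within 1.5 times their value and 28 did not, and no value of a single gene past the limits changed its sign. With a limit of 2-fold, the NF-κB genes higher in the library labelled KO numbered 1 in FAP-like, 2 in tenocyte-like, 0 in endothelial-like, 0 in lymphatic endothelial-like (and 0 lower), 0 in macrophage-like, 0 in dendritic-like, 1 in T-like and 1 in Schwann-like cells. Of all genes tested, 175 of 12858, 316 of 11209, 162 of 11876 and 221 of 6851 (109 lower) were higher in the first types of this list. In macrophage-like, dendritic-like, T-like and Schwann-like cells 175 of 10426, 256 of 6475, 184 of 5202 and 226 of 9008 were higher. At resolution 0.4 they numbered 3 in FAP-like, 4 in dendritic-like and 6 in T-like cells, and at resolution 1.2 they numbered 3 in FAP-like cells. By the mean over cells the NF-κB genes higher numbered 3 in lymphatic endothelial-like cells, without Harmony 1 in T-like cells, and with 100 UMIs or more 1 in Schwann-like cells. Of all genes, 1054 of 6851, 319 of 6084 and 170 of 3864 were higher in these. In MuSC-like cells 8 was also the count under all alternatives other than 100 UMIs or more (7) and 2-fold (6). Under these limits 508 of 4489 and 437 of 8876 of all genes were higher there. Genes of other lists past the limits numbered, when centred, 1 of the other subunits and 2 adaptors in FAP-like cells and 2 adaptors in macrophage-like cells. By the mean over cells they numbered 0 ligands and 2 further inhibitors in FAP-like cells and 2 kinases in macrophage-like cells. In endothelial-like cells they then numbered 0 other subunits, 2 adaptors, 3 receptors, 1 ligand, 0 further inhibitors and 4 early genes. Of all genes, 528 of 12858 were higher and 667 lower in FAP-like cells when centred, and 476 and 599 of 10426 in macrophage-like cells. By the mean over cells there were 526 and 883 in FAP-like, 609 and 1098 in macrophage-like and 758 and 593 of 11876 in endothelial-like cells. The cause of the shifts in counts was not tested. Joining the 3 large clusters without a name to the type of their best markers, an alternative chosen after seeing the data, left 5 NF-κB genes higher in FAP-like and 3 in endothelial-like cells. Of all genes, 438 of 12952 and 504 of 12973 were then higher. Leaving out cells with over 1% of UMIs in B or red blood markers, also chosen after seeing the data, left the numbers of the 10 NF-κB genes higher and lower as they were in all 10 types. Depth limited Nfkbid, which had too few UMIs in 6 types, and Tnfaip3 in Schwann-like, pericyte and smooth muscle-like and MuSC-like cells. Names rebuilt here may differ from those of the study.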

Other observations

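Neutrophil-like cells (21 by the WT label and 34 by the KO label, in which order pairs of values stand) were too few for the comparison, and their values are given as read. Nfkbiz, which acts in the nucleus, was at 65.8 (26.4 to 135) and 386 (299 to 491) CPM, on 7 and 67 UMIs, and Zfp36l1 at 178 (107 to 279) and 542 (438 to 663) CPM. Zfp36 was at 1024 and 1032 CPM in the same cells, with a log2 ratio of 0.01 (-0.34 to 0.37). Tnfaip3 was at 529 and 478 CPM in NK-like cells (32 and 28 cells), and Rel at 509 and 398 CPM in B-like cells (40 and 56 cells).

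A cluster led by Retnla, Lyz2 and Lyz1, with Il1b among its leading genes (139 and 179 cells), was given no name. In it Relb was at 47.5 and 97.1 CPM, for a log2 ratio of 1.03 (0.60 to 1.48), and Rel at 339 and 625, one of 0.88 (0.72 to 1.05). Nfkb1 was at 454 and 725 CPM, Nfkbiz at 300.0 and 470.0 and Zfp36 at 963 and 1321. Nfkbia, the gene of the cytoplasmic inhibitor, was at 615 and 610.1 CPM, for a log2 ratio of -0.01 (-0.15 to 0.12).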
